A study of Mus musculus with 21 samples.

Results

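The genes described here are those of V(D)J recombination and early B lineage commitment, Dntt, Rag1, Rag2, Ebf1, Pax5, Vpreb1 and Igll1, read in dendritic cells (DCs) of an Aire-reporter mouse strain. They were taken by symbol from the raw count table, and all 7 were found among its 55471 genes. In lymphocytes the Rag1 and Rag2 proteins form the recombinase that cuts antigen receptor loci at V(D)J segments, and Dntt, terminal deoxynucleotidyl transferase, adds untemplated nucleotides at the joints. Ebf1 and Pax5 are transcription factors that specify and commit cells to the B lineage, and Vpreb1 and Igll1 encode the surrogate light chain that pro-B and pre-B cells pair with the first immunoglobulin heavy chain. Dntt and the Rag genes are known from common lymphoid progenitors and from plasmacytoid DCs as well, while Pax5, Vpreb1 and Igll1 are classed as B lineage genes.

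All mice were C57BL/6, aged 6 weeks and labelled male, and all carried 1 AGF-KI allele, the reporter of the Aire-reporter strain. AireKO cells came from mice of the genotype AGF-KI/- and the controls from AGF-KI/+ mice. The 7 groups of 3 libraries were bone marrow AGF+ AireKO, lymph node AGF+ AireKO, lymph node AGF- AireKO, bone marrow AGF+ KI/+, lymph node AGF+ KI/+, lymph node AGF- KI/+ and bone marrow total DC KI/+. Lymph node cells carrying CD45, CD11c and MHCII were sorted into reporter-positive and reporter-negative cells, with no B220 exclusion named in the labels. Bone marrow AGF+ cells came from B220- CD24+ cells without or with low CD11b, whereas the total DCs, which the design text counts as AGF-, were B220- CD11c+ MHCII+, so that gate and reporter cannot be told apart there.

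The promoters of 4 members are shown because Dntt and Rag1 were read in bone marrow AGF+ cells and the surrogate light chain genes Vpreb1 and Igll1 hardly at all. Each line gives the 250 bases before the RefSeq start of the gene, 5′ to 3′ on its own strand, from RefSeq on GRCm38.p6. Capitals mark the E-box CANNTG, which E proteins such as Tcf3 and Tcf4 can bind, and CCCNNGGG, letters of the kind early B cell factors can bind.
Dntt (chr19:41029025-41029274, plus strand): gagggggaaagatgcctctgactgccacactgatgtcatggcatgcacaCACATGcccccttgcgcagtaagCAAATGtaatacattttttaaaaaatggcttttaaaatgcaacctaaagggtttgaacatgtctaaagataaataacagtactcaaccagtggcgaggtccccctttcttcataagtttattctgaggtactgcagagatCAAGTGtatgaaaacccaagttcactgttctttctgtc
Rag1 (chr2:101649533-101649782, minus strand): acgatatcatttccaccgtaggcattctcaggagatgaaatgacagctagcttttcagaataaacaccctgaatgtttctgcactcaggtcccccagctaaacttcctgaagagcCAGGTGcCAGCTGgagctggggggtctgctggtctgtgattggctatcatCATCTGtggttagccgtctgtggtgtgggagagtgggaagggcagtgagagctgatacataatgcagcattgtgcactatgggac
Vpreb1 (chr16:16869256-16869505, minus strand): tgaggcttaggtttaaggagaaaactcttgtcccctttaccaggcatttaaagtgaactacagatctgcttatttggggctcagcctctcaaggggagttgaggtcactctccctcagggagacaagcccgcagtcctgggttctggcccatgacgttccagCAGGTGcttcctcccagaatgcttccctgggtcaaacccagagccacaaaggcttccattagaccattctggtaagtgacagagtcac
Igll1 (chr16:16863986-16864235, minus strand): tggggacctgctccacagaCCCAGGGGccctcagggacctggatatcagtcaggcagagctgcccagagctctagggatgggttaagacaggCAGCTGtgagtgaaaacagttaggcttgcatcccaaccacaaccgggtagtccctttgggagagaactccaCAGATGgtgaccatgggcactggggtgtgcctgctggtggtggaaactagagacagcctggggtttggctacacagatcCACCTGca
All 7 members matched a RefSeq promoter, and both strands were searched. The E-box stood 3 times before Dntt, 3 times before Rag1, once before Vpreb1 and 3 times before Igll1, but 66.2% of 32851 promoters of this length hold it. Its form CAGGTG, a subset of CANNTG, occurred before Rag1, Vpreb1 and Igll1 and in 17.2% of promoters. CCCNNGGG occurred before Igll1 and in 11.8% of promoters. These letters do not separate the expressed pair from the pair near 0, and a match is a description of the sequence only.

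Libraries held 4164451 to 6055097 counts, so that 1 CPM, a count scaled to library size, corresponded to 3.93 to 6.58 counts and 3 counts in a library to 0.456 to 0.764 CPM. Values below are CPM on TMM effective library sizes unless they are called counts, errors are SD over n = 3 libraries, and folds are log2 fold changes ± SE. Aire, the targeted gene, had 61, 58 and 77 counts in bone marrow AGF+ AireKO cells, against 566, 566 and 445 in KI/+ cells. In lymph node AGF+ cells it had 136, 132 and 128 counts in AireKO, against 834, 649 and 509 in KI/+. In lymph node AGF- cells Aire had 56, 82 and 68 counts in AireKO, against 67, 70 and 66 in KI/+. No difference was called there (-0.19 ± 0.16, edgeR adjusted p = 0.883). The 7 libraries numbered 2, 1 in each group, went against the male label, with Xist at 2022 to 3994 CPM and 4 Y-linked genes summing to at most 0.766 CPM, while the other 14 had at most 31.1 CPM of Xist and at least 329 CPM of the Y-linked genes. Each call of a member below was repeated without those 7, but calls of other genes were not. DC markers were present in every group: 6 conventional DC markers, Itgax, H2-Ab1, Cd74, Ciita, Zbtb46 and Flt3, summed to 3482 to 7683 CPM per library and none was at 0 in any group. Calls over a longer list of conventional DC genes went both ways in bone marrow and are given below.

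**Figure D1:**
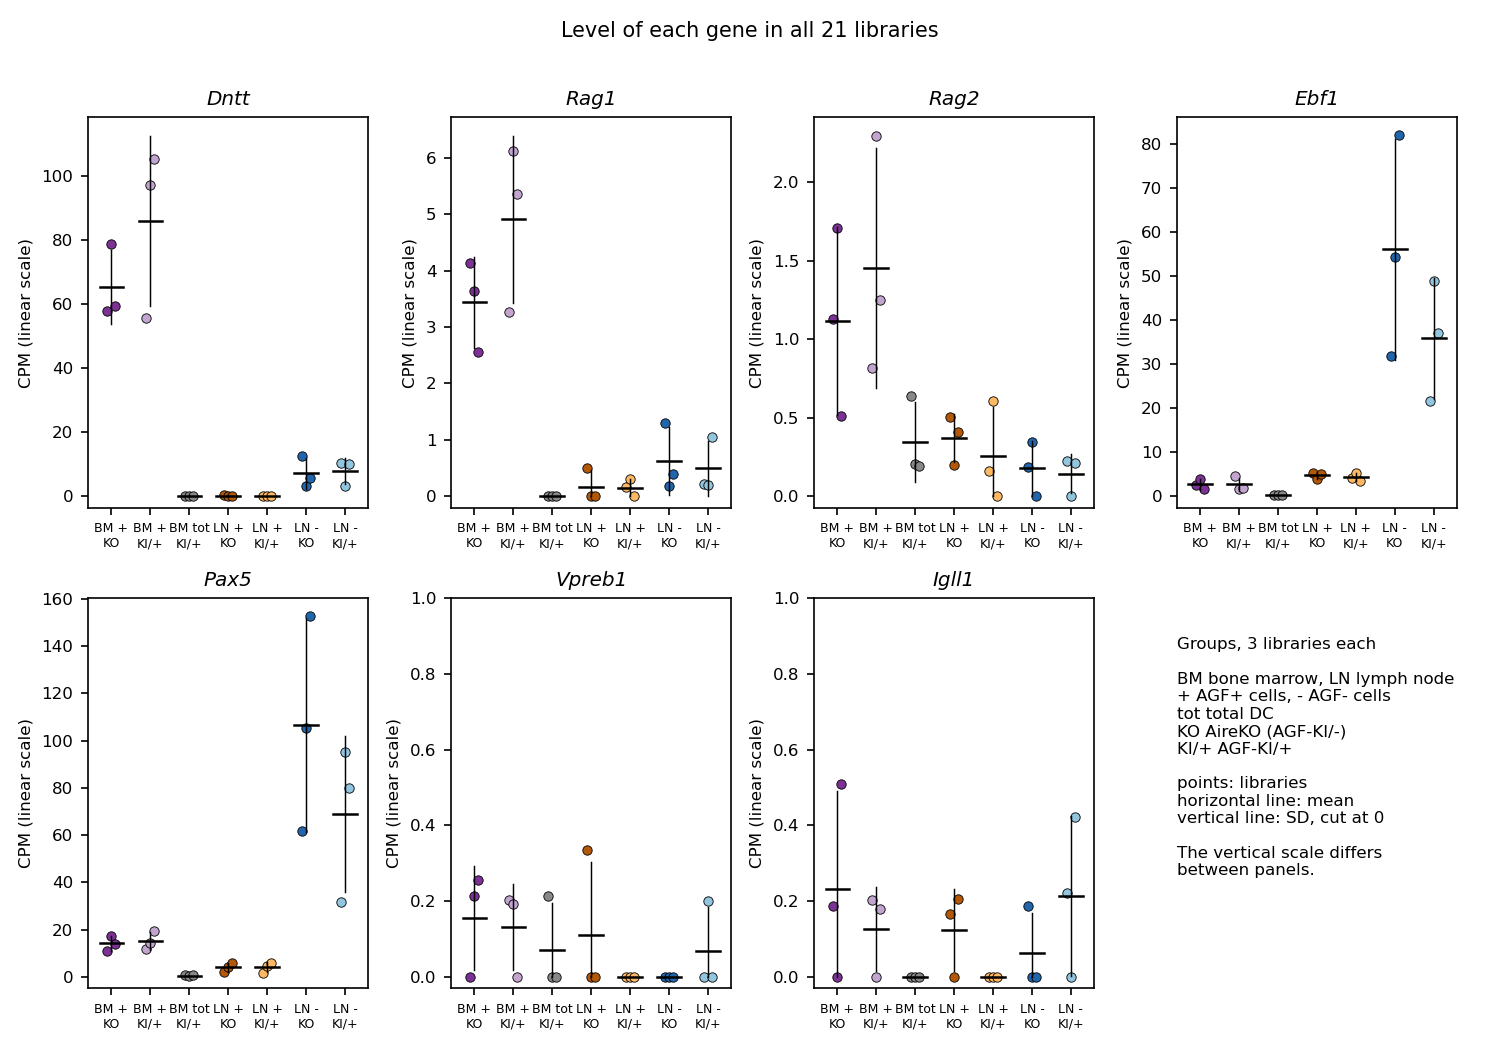
CPM (linear scale, a different range in each panel) of the 7 genes in all 21 libraries; points are libraries, horizontal lines means and vertical lines SD cut at 0, for 7 groups of 3. Dntt, Rag1 and Rag2 are highest in the bone marrow AGF+ groups, Ebf1 and Pax5 in the lymph node AGF- groups, and Vpreb1 and Igll1 stay below 1 CPM in every library.

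Bone marrow AGF+ cells as a pool held RNA of Dntt, Rag1 and Pax5, with few reads of Rag2 and almost none of the surrogate light chain genes. Bulk RNA cannot tell whether the same cells held these transcripts, and protein was not measured. Dntt averaged 85.9 ± 26.6 CPM in bone marrow AGF+ KI/+ cells, against 0.139 ± 0.121 in total DCs. Rag1, Pax5 and Ebf1 were higher in the AGF+ cells as well. Of the 7 members, 4 passed the filter on low counts in bone marrow, Dntt, Rag1, Ebf1 and Pax5, and they could pass only through the AGF+ libraries, since their total DC counts lie under it. Their calls by edgeR's quasi-likelihood test at an adjusted p under 0.05 are therefore given gene by gene, and nothing is read from their number beside the 22.8% of 15503 genes called higher and 44.4% in either direction.

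Dntt had 272, 507 and 589 counts in bone marrow AGF+ KI/+ cells, against 1, 1 and 0 in total DCs. The groups were far apart, and no total DC library held more than a stray read of this enzyme. The ratio was 641-fold with a 95% counting interval of 177 to 5300 and an edgeR adjusted p of 3.80e-07. Such exact binomial intervals, here and below, cover counting error only.

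Rag1, the catalytic subunit of the recombinase, had 16, 32 and 30 counts in bone marrow AGF+ KI/+ cells and 0 in all 3 total DC libraries. Against a floor of 3 counts over the total DC group it was at least 24.4-fold higher in AGF+ cells (edgeR adjusted p = 7.69e-05). Rag2, the cofactor that reads histone H3 and completes the recombinase, had 4, 12 and 7 counts in AGF+ KI/+ cells, against 3, 1 and 1 in total DCs. Rag2 libraries did not overlap either, but the gene was too low for the filter, and its value without the filter was 2.02 ± 0.70 with an edgeR adjusted p of 0.0174. B230118H07Rik, which shares 80 exon bases with Rag1 and 208 with Rag2, did not move with them: its log2 fold change was -0.06 ± 0.27 (edgeR adjusted p = 0.880).

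Pax5 had 58, 76 and 109 counts in bone marrow AGF+ KI/+ cells, against 3, 1 and 4 in total DCs. It averaged 15.3 ± 3.86 CPM in AGF+ cells and 0.539 ± 0.297 CPM in total DCs, and the log2 fold change was 4.77 ± 0.39 (edgeR adjusted p = 6.92e-06). Ebf1, the factor that acts upstream of Pax5 in B cell development, had 22, 9 and 10 counts in AGF+ KI/+ cells, against 1, 1 and 2 in total DCs. Its libraries were also apart, with a log2 fold change of 3.18 ± 0.67 (edgeR adjusted p = 0.00287). Without the libraries numbered 2 these 4 genes were still called, with edgeR adjusted p-values between 0.000285 for Dntt and 0.0212 for Ebf1. In bulk RNA, fewer cells of a type and less RNA per cell cannot be told apart.

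The surrogate light chain genes were at the limit of detection. Vpreb1 summed to 2 counts in the 3 bone marrow AGF+ AireKO libraries, 2 in the AGF+ KI/+ libraries and 1 in total DCs. Igll1 summed to 3, 2 and 0 counts in the same groups. Vpreb2, whose transcript is identical to that of Vpreb1 at 97.4% of 759 aligned bases so that reads can be split between them, had 3, 2 and 2 counts in AGF+ AireKO cells, 3, 4 and 2 in AGF+ KI/+ cells and 1, 0 and 0 in total DCs. Vpreb1 also shares 108 exon bases, 9.01% of its exons, with the opposite-strand gene Top3b, which held 11941 counts in all. Reads of this stretch may be split or lost as well. No fold is given for Vpreb1 or Igll1, since all groups lie at or under 3 counts in sum, and differences were not detectable at this depth.

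Compared per kilobase of exon, the level of Dntt stood far above that of the other members in bone marrow AGF+ KI/+ cells, at 37.5 ± 11.6 CPM per kb. Pax5 followed at 1.73 ± 0.436 CPM per kb. Rag1 was at 0.744 ± 0.224, Rag2 at 0.425 ± 0.223 and Ebf1 at 0.273 ± 0.162 CPM per kb, and these last 3 overlap within their SD except for Rag1 and Ebf1. In the AireKO cells of the same sort the order was the same, with Dntt at 28.5 ± 5.08 and Pax5 at 1.604 ± 0.364 CPM per kb.

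Of 16 mature B cell genes tested in bone marrow, Pax5 among them, 13 rose and 2, Cd22 and Bank1, fell (median 2.72). Over all genes 22.8% rose and 44.4% were called in either direction. Some of the list could pass the filter only through the AGF+ libraries, such as Ms4a1, with 1, 2 and 2 counts in total DCs. Ighd, with 3, 1 and 0 counts in total DCs, is another, and nothing is read from the tally. Levels of the mature B cell genes were uneven. Cd79a, the signalling chain that Ebf1 and Pax5 both activate in B cells, had only 5, 5 and 2 counts in AGF+ KI/+ cells and 2, 1 and 0 in total DCs, a ratio of 3.75 with a counting interval of 1.01 to 20.7. Blk, a Src family kinase of B cells and plasmacytoid DCs, was abundant at 502, 559 and 484 counts in AGF+ KI/+ cells, against 34, 27 and 14 in total DCs (4.27 ± 0.29, edgeR adjusted p = 1.98e-06). Cd79b, the partner chain of Cd79a, had 546, 664 and 505 counts in AGF+ KI/+ cells, against 108, 104 and 93 in total DCs (2.41 ± 0.16, edgeR adjusted p = 1.79e-06). Cd79a, Bank1, Cd22 and Cr2 were singled out after their values were seen, and Bank1, a B cell adaptor, was at 0 in all AGF+ KI/+ libraries, at least 34.1-fold lower than in total DCs.

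**Figure D2:**
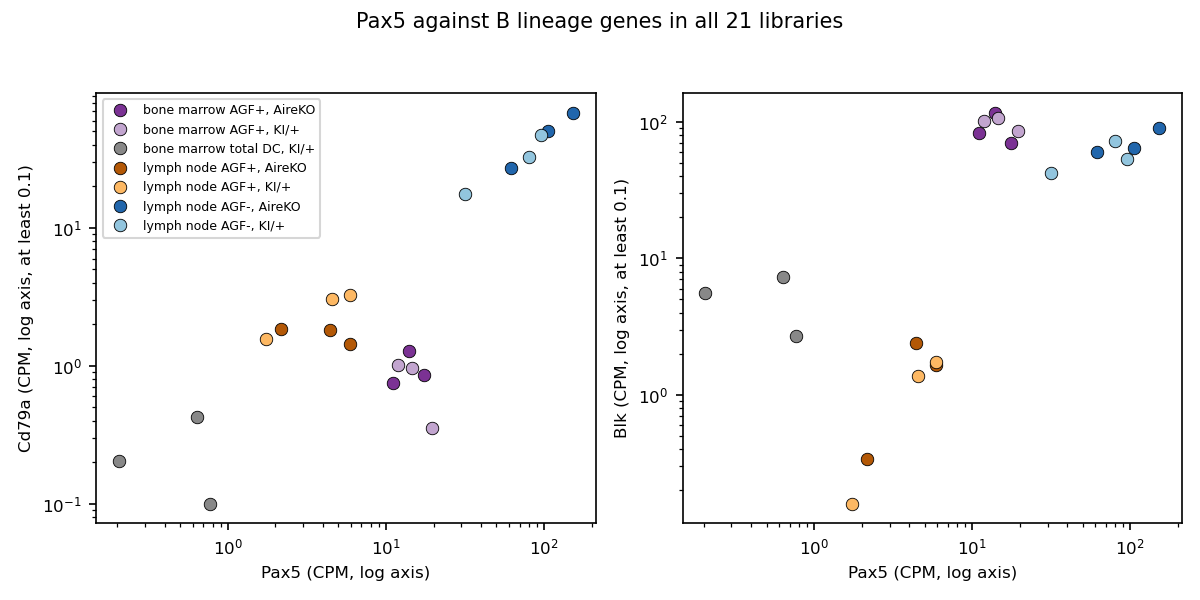
Cd79a and Blk (vertical, CPM) against Pax5 (horizontal, CPM), on log axes with values under 0.1 drawn at 0.1, in all 21 libraries coloured by group. Bone marrow AGF+ libraries have more Pax5 than lymph node AGF+ libraries, yet less Cd79a, while their Blk range (70.5 to 117 CPM) overlaps that of lymph node AGF- libraries (42.2 to 90.9 CPM).

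The 8 B cell markers Ms4a1, Cd22, Fcrla, Blk, Cr2, Fcer2a, Cd79a and Cd79b summed to 237 to 285 CPM in bone marrow AGF+ KI/+ cells and to 32.2 to 43.7 CPM in total DCs, none of them at 0 in either group. The 6 plasmacytoid DC markers Siglech, Bst2, Ccr9, Ly6d, Tcf4 and Runx2 summed to 1534 to 1768 CPM in AGF+ KI/+ cells and to 608 to 694 CPM in total DCs. The 6 T cell markers Cd3d, Cd3e, Cd3g, Bcl11b, Lck and Themis summed to 12.03 to 22.1 CPM in AGF+ KI/+ cells and 1.28 to 3.07 CPM in total DCs. The sums of these 3 lists were higher in every AGF+ library, but not each of their genes. Cd22 fell (7, 2 and 3 counts in AGF+ KI/+ cells, against 23, 38 and 22 in total DCs). Cr2 had 22, 26 and 27 counts in AGF+ KI/+ cells and 19, 31 and 25 in total DCs. In the T cell list Lck rose by 5.43 ± 0.39 (edgeR adjusted p = 2.55e-06), but others were near the floor. Over the 3 AGF+ KI/+ libraries Cd3d summed to 6 counts, Cd3g to 7, Bcl11b to 3 and Themis to 1. Sums of the other lists were not higher in every AGF+ library. Vpreb3 and Il7r, the pro-B and pre-B cell markers that are not members, summed to 305 to 460 CPM in AGF+ KI/+ cells. In total DCs they summed to 225 to 611 CPM. The 4 plasma cell markers were Jchain, Mzb1, Xbp1 and Sdc1. They summed to 220 to 275 CPM in AGF+ KI/+ cells and 272 to 376 CPM in total DCs, with Mzb1 at 0 in both groups. Single genes of these lists were higher all the same. Vpreb3 had 18, 14 and 18 counts in AGF+ KI/+ cells, against 3, 1 and 0 in total DCs, while Il7r overlapped. Jchain had 268, 276 and 383 counts in AGF+ KI/+ cells, against 12, 14 and 6 in total DCs (4.75 ± 0.28, edgeR adjusted p = 7.92e-07). The part of these cell types in the members' values was not tested.

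Some genes of the rest of the machinery were higher in the same sort, others were not. Of 17 DNA end joining and recombinase cofactor genes tested, 7 rose in bone marrow AGF+ KI/+ cells relative to total DCs and 0 fell. Over all genes 22.8% rose and 44.4% were called in either direction, and nothing is read from the number. The median log2 fold change was 0.39, against 0.02 over all genes. Xrcc6, the Ku70 subunit that holds broken DNA ends, rose by 1.23 ± 0.18, and Hmgb2, which helps the recombinase to bend DNA, by 1.08 ± 0.18 (edgeR adjusted p = 0.000277 and 0.000640). Rad50, of the break-sensing complex, rose by 1.00 ± 0.14 and Trp53bp1, which shields ends from resection, by 0.60 ± 0.12 (edgeR adjusted p = 0.000252 and 0.00177). The end joining genes Dclre1c, Lig4 and Xrcc4, named after their values were seen, overlapped between the groups. Dclre1c had 944, 781 and 863 counts in AGF+ KI/+ cells, against 1288, 694 and 870 in total DCs. Lig4 had 33, 29 and 31 against 19, 43 and 47, and Xrcc4 58, 62 and 83 against 59, 70 and 111, in the same groups.

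Among 6 genes of E and Id proteins tested, 4 rose and 2 fell in bone marrow AGF+ KI/+ cells, where 44.4% of all genes were called in either direction. The E protein genes Tcf3 and Tcf4, whose products drive Rag transcription in lymphocytes, rose by 1.69 ± 0.22 and 1.09 ± 0.12, and Tcf12, another E protein gene, by 0.36 ± 0.11. The genes of their inhibitors did not move one way. Id3 and Id2 fell by 1.35 ± 0.31 and 0.97 ± 0.24 (edgeR adjusted p = 0.00507 and 0.00614), whereas Id1, at 8, 13 and 12 counts in AGF+ KI/+ cells against 3, 3 and 7 in total DCs, rose by 1.24 ± 0.41 (edgeR adjusted p = 0.0307). Tcf12 and Id1 were named after their values were seen.

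Of 20 pro-B and pre-B cell genes tested, 10 rose and 2 fell, with a median of 0.61. Beside this and the tallies that follow, 22.8% of all genes rose and 44.4% were called in either direction. Arpp21, a phosphoprotein gene known from immature thymocytes, had 276, 458 and 470 counts in AGF+ KI/+ cells, against 3, 3 and 1 in total DCs (7.26 ± 0.33, edgeR adjusted p = 1.75e-07). Erg, an ETS factor of blood progenitors and pro-B cells, rose by 4.67 ± 0.44, and Lef1, a Wnt pathway factor of pro-B and T cells, by 1.77 ± 0.19 (edgeR adjusted p = 1.53e-05 and 4.08e-05). Others of the list were lower, such as Irf4 and Cd24a, named after their values were seen. Irf4 had 1725, 1736 and 1798 counts in AGF+ KI/+ cells, against 3058, 2913 and 3348 in total DCs. Cd24a had 805, 876 and 1298 counts against 1229, 2586 and 2771 in the same groups. Of 20 lymphoid progenitor genes tested 13 rose and 2 fell (median 1.74). An example is Mef2c, a progenitor and DC transcription factor, at 5.73 ± 0.26. Among the mature B cell genes Ighd, of immunoglobulin D, rose by 5.97 ± 0.45 and Cxcr5, the follicle homing receptor, by 3.37 ± 0.17. Of 15 plasmacytoid DC genes tested 10 rose and 3 fell (median 2.26), with Runx2 at 2.57 ± 0.14 and Spib at 3.07 ± 0.25 among those that rose. Of 11 conventional DC genes tested 2 rose, Flt3 by 3.15 ± 0.26 and Ciita by 1.02 ± 0.19, and 4 fell (median 0.26). Among these 4, Cd209a had a log2 fold change of -6.99 ± 0.78 and Clec10a of -1.95 ± 0.27. The lists share genes, such as Cd79b in the pro-B and mature B cell lists.

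In lymph node the direction was the opposite: AGF+ cells had less Dntt, Ebf1 and Pax5 than AGF- cells. The 3 passed the filter there, Dntt only through the AGF- libraries, and each was called lower in AGF+ cells of both genotypes. In AireKO cells 13.3% of the 15884 genes tested were called lower and 24.7% in either direction, and in KI/+ cells 11% and 21.1%. In AireKO mice Pax5 averaged 4.18 ± 1.896 CPM in AGF+ cells and 107 ± 45.4 CPM in AGF- cells. In KI/+ mice Ebf1 averaged 4.30 ± 0.931 CPM in AGF+ cells and 35.8 ± 13.7 CPM in AGF- cells.

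Pax5 had 13, 22 and 29 counts in lymph node AGF+ AireKO cells, against 332, 611 and 786 in AGF- AireKO cells (-4.70 ± 0.50, edgeR adjusted p = 1.77e-05). In KI/+ mice it had 11, 30 and 27 counts in AGF+ cells, against 143, 472 and 378 in AGF- cells (-4.13 ± 0.50, edgeR adjusted p = 6.64e-05). Every AGF+ library was below every AGF- library. Part of the Pax5 exons, 125 and 636 bases, overlaps the opposite-strand genes Gm12462 and 5730488B01Rik, and reads of overlapping genes may be split between them. Both were lower in AGF+ cells with Pax5. Gm12462 had 2, 0 and 2 counts in AGF+ AireKO cells against 22, 52 and 40 in AGF- AireKO cells, and 0, 1 and 1 in AGF+ KI/+ cells against 11, 26 and 23 in AGF- KI/+ cells. 5730488B01Rik summed to 3 counts in AGF+ and 49 in AGF- AireKO cells, and to 1 in AGF+ and 24 in AGF- KI/+ cells. In bone marrow Gm12462 summed to 8 counts in AGF+ KI/+ cells and 0 in total DCs.

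Ebf1 had 31, 19 and 25 counts in lymph node AGF+ AireKO cells, against 171, 315 and 422 in AGF- AireKO cells (-3.56 ± 0.37, edgeR adjusted p = 1.31e-05). In KI/+ mice it had 26, 35 and 16 counts in AGF+ cells, against 97, 242 and 176 in AGF- cells (-3.04 ± 0.37, edgeR adjusted p = 6.80e-05). The groups did not overlap in either genotype. Over both genotypes Ebf1 ran from 3.49 to 5.32 CPM in AGF+ libraries and from 21.5 to 82.0 CPM in AGF- libraries, and Pax5 from 1.73 to 5.94 CPM in AGF+ and from 31.7 to 153 CPM in AGF- libraries.

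Dntt had 2, 0 and 0 counts in lymph node AGF+ AireKO cells, against 67, 19 and 29 in AGF- AireKO cells. The ratio was 55.9-fold lower in AGF+ cells, with a counting interval of 15.1 to 467 (edgeR adjusted p = 0.00106). In KI/+ mice it had 0 counts in every AGF+ library, against 47, 16 and 48 in AGF- cells, at least 45.6-fold lower against the floor of 3 counts in the group (edgeR adjusted p = 0.000536). Dntt was thus near or at 0 in AGF+ cells of lymph node, whereas AGF+ cells of bone marrow had the most.

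Rag1 and Rag2 were scarce throughout the lymph node. Rag1 had 3, 0 and 0 counts in AGF+ AireKO cells and 7, 1 and 2 in AGF- AireKO cells, and in KI/+ mice 1, 2 and 0 in AGF+ cells and 1, 1 and 5 in AGF- cells. Its AGF+ and AGF- groups overlapped, and with no filter the edgeR adjusted p was 0.405 in AireKO and 0.562 in KI/+ cells. Rag2 summed to 6 and 3 counts in AGF+ and AGF- AireKO cells and to 5 and 2 counts in AGF+ and AGF- KI/+ cells. Vpreb1 and Igll1 summed to at most 3 counts in any lymph node group, and Vpreb2 had 0 in all 12 libraries. Without the libraries numbered 2, Dntt, Ebf1 and Pax5 were still called lower in both genotypes, with edgeR adjusted p-values of at most 0.00606.

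**Figure D3:**
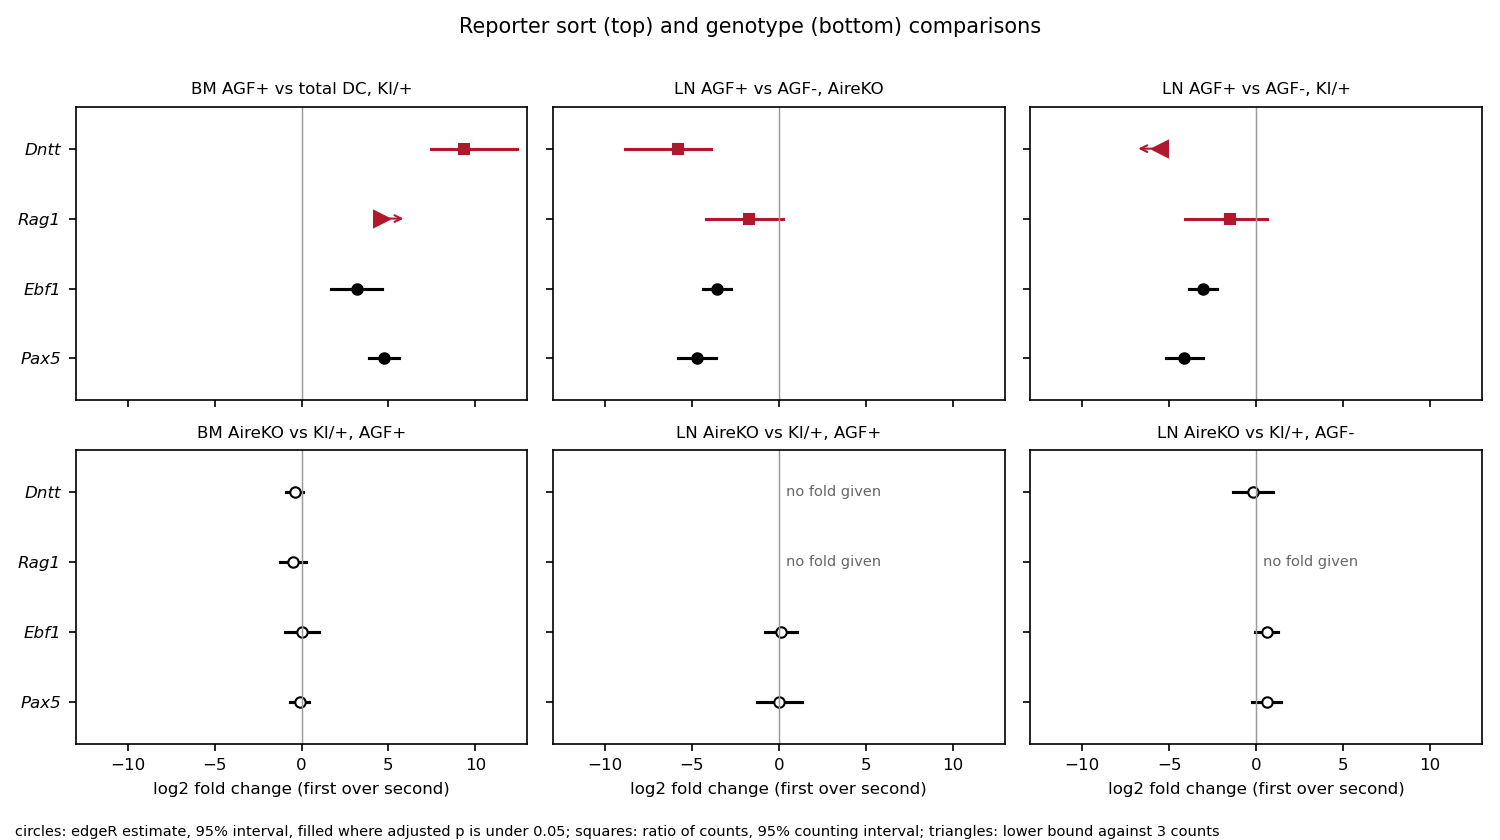
Log2 fold changes (first over second group) of the 4 members tested in bone marrow, for the reporter sort in the top row and genotype in the bottom row. Circles are edgeR estimates with 95% intervals, filled where adjusted p is under 0.05. Squares are count ratios with 95% counting intervals, drawn also for Rag1 in lymph node, which was not tested there, and triangles lower bounds against 3 counts. No fold is drawn where both groups are at or under 3 counts, or where both are above 3 counts and the gene was not tested. In the top row the 4 genes lie above 0 in bone marrow, and Dntt, Ebf1 and Pax5 lie below 0 in lymph node, where the counting intervals of Rag1 include 0; each genotype interval drawn includes 0.

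Mature B cell genes, a list that holds Pax5, were mostly lower in lymph node AGF+ cells as well. Of 19 tested, 15 were lower and 1 higher in AGF+ than AGF- KI/+ cells. The median log2 fold change was -2.78, against 0.01 over all genes, of which 11% were called lower and 21.1% in either direction. Some of the list, such as Blk, could pass the filter only through the AGF- libraries. Fcrla, of germinal centre and mature B cells, had a log2 fold change of -5.04 ± 0.36, Blk of -5.73 ± 0.46, Cd22, an inhibitory receptor of B cells, of -2.78 ± 0.29 and Ighm of -2.28 ± 0.23 (edgeR adjusted p at most 2.2e-05 for these 4). Of 21 pro-B and pre-B cell genes tested 8 were lower and 2 higher (median -0.59), among them Cd79a at -3.65 ± 0.43. The counts in AireKO cells were 16 of 19 lower for the mature B cell genes and 11 of 21 for the pro-B and pre-B cell genes. In that comparison 13.3% of all genes were called lower.

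Genes of other cell types were lower in the same sort as well. Of 16 plasmacytoid DC genes tested 9 were lower and 1 higher in AGF+ KI/+ cells, with Ly6d at -4.85 ± 0.42 and Siglech, a surface receptor of plasmacytoid DCs, at -3.73 ± 0.68. Of 12 T lineage genes 9 were lower and 1 higher, and of 20 lymphoid progenitor genes 10 were lower and 2 higher. Of 13 conventional DC genes 8 were lower and 0 higher in KI/+ cells, and 9 were lower and 3 higher in AireKO cells. Cd209a, a lectin receptor of DCs, had a log2 fold change of -4.89 ± 0.36 in KI/+ cells, and Clec9a and Xcr1, receptors of cross-presenting DCs, had -3.95 ± 0.38 and -2.69 ± 0.34. Of the 17 end joining genes tested 4 were called in KI/+ cells, 3 lower and 1 higher, a share near the 21.1% of all genes. The B cell marker list summed to 79.7 to 93.6 CPM in AGF+ AireKO and 72.2 to 98.02 CPM in AGF+ KI/+ cells, against 418 to 837 and 291 to 615 CPM in the AGF- cells of the same genotypes, and none of the 8 was at 0 in any of these groups. The part of these cell types in the Ebf1 and Pax5 values was not tested.

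Within the AGF- libraries, the members fell into 2 patterns. Dntt was 12.5, 3.28 and 5.63 CPM in AGF- AireKO replicates 1, 2 and 3 and 10.4, 3.23 and 10.1 CPM in AGF- KI/+ replicates 1, 2 and 3. Siglech in the same libraries was 299, 52.4 and 80.8 CPM in AireKO and 168, 36.5 and 146 CPM in KI/+ cells, in the same order of libraries. Pax5 was 62.0, 106 and 153 CPM in AireKO and 31.7, 95.2 and 79.9 CPM in KI/+ cells. Cd79a stood at 27.2, 50.3 and 68.6 CPM in AireKO and 17.8, 47.2 and 32.5 CPM in KI/+ cells. Thus the replicates numbered 2, lowest for Dntt and Siglech, were not the lowest for Pax5 and Cd79a.

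Over these 6 libraries of both genotypes, Pearson r of log2 CPM was 0.97 between Dntt and Siglech and -0.73 between Dntt and Cd79a. For Ebf1 it was 0.99 with Cd79a and -0.63 with Siglech, and for Pax5 0.98 with Cd79a and -0.59 with Siglech. These values are descriptions of 6 libraries that share sort and preparation, and Siglech and Cd79a were chosen after their values were seen.

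**Figure D4:**
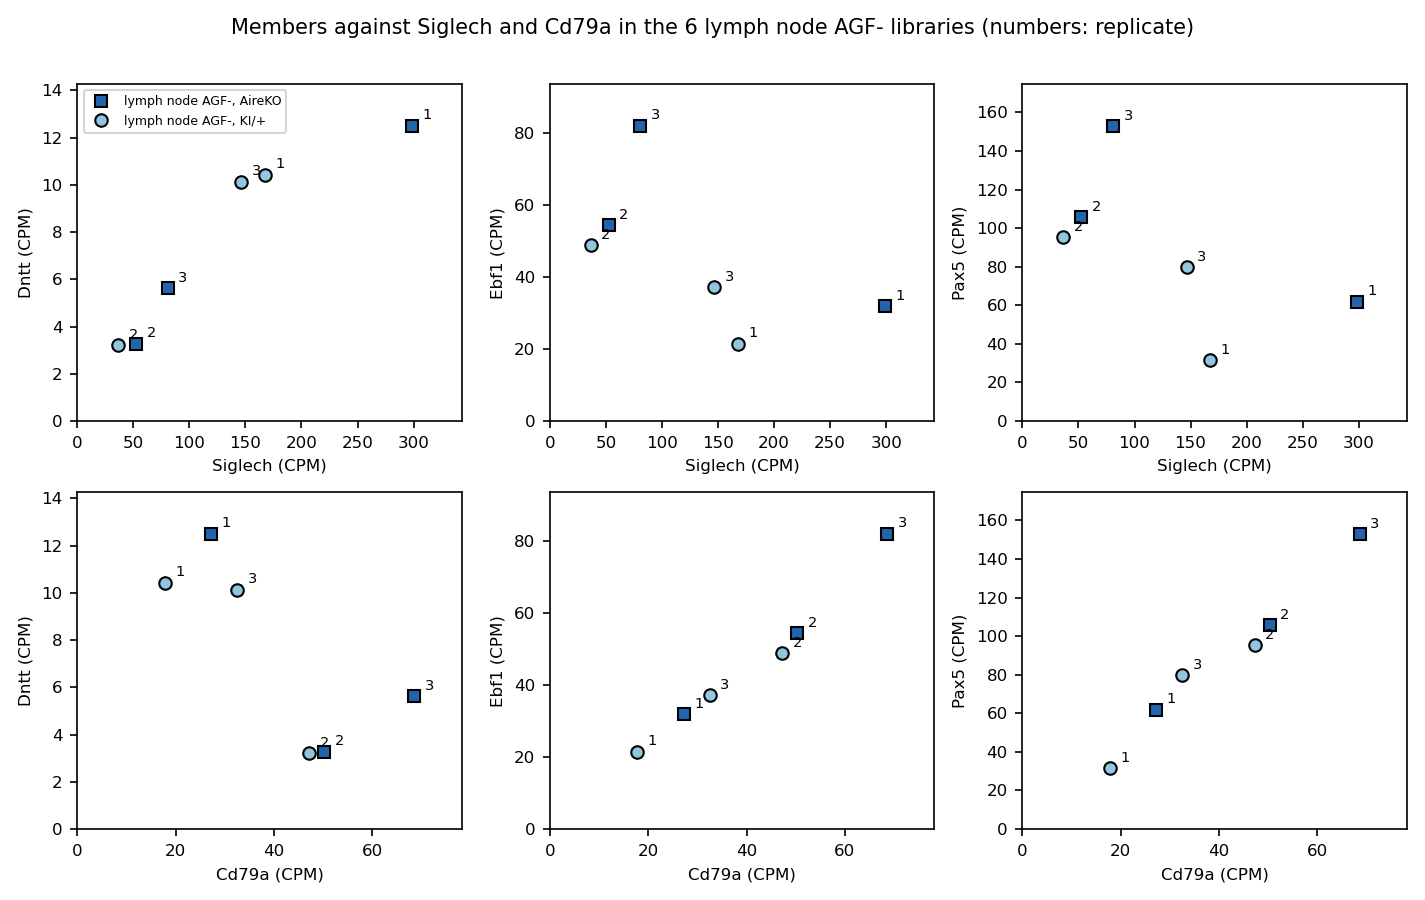
CPM of Dntt, Ebf1 and Pax5 (vertical) against Siglech (top row) and Cd79a (bottom row) in the 6 lymph node AGF- libraries, squares AireKO and circles KI/+, numbered by replicate. Dntt is higher where Siglech is higher (r = 0.97), while Ebf1 and Pax5 are higher where Cd79a is higher (r = 0.99 and 0.98).

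Whether loss of Aire in AGF-KI/- mice changed these genes was asked in 3 sorts, and no member was called in any of them by edgeR's test. Over all genes, 0.0129% were called in bone marrow AGF+ cells, 0.0126% in lymph node AGF+ cells and 0.00630% in lymph node AGF- cells, so that few calls were made anywhere. Only 4 of the 7 members were tested in bone marrow and 3 in lymph node. Dntt was tested in lymph node AGF+ cells too, but summed there to 2 counts in AireKO and 0 in KI/+ cells. The number of tested members below 0.05 before adjustment was 0 in each sort as well, and DESeq2 and limma voom also called 0.

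In bone marrow AGF+ cells Dntt had 307, 368 and 233 counts in AireKO and 272, 507 and 589 in KI/+ cells. The groups overlapped, and the log2 fold change was -0.39 with a 95% interval of -0.89 to 0.10. Rag1 had 22, 17 and 10 counts in AireKO and 16, 32 and 30 in KI/+ cells (-0.49, interval -1.23 to 0.24), and Rag2 had 6, 8 and 2 in AireKO and 4, 12 and 7 in KI/+ cells. Pax5 had 59, 82 and 55 counts in AireKO and 58, 76 and 109 in KI/+ cells (-0.11, interval -0.65 to 0.44). Ebf1 had 14, 18 and 6 counts in AireKO and 22, 9 and 10 in KI/+ cells (0.04, interval -0.93 to 1.02). The intervals of Dntt and Pax5 leave out a log2 difference of 1 in either direction, those of Rag1 and Ebf1 do not.

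In lymph node AGF- cells Ebf1 and Pax5 were higher on average in AireKO mice, but neither was called. Ebf1 averaged 56.1 ± 25.1 CPM in AireKO and 35.8 ± 13.7 CPM in KI/+ cells (0.62, interval -0.03 to 1.28, edgeR adjusted p = 0.835). Pax5 averaged 107 ± 45.4 CPM in AireKO and 68.9 ± 33.1 CPM in KI/+ cells (0.61, interval -0.23 to 1.44, edgeR adjusted p = 0.854). Libraries of these groups overlapped, but those with the same number deviated together (correlations of 0.360 to 0.430), and within each of the 3 numbers the AireKO library was higher for both genes. With the replicate number as a block the values were 0.61 for Ebf1 and 0.65 for Pax5, with edgeR adjusted p-values of 0.515 and 0.434. With no filter on low counts Pax5 was called, at an edgeR adjusted p of 0.0478. Cd79a averaged 48.7 ± 20.7 CPM in AireKO and 32.5 ± 14.7 CPM in KI/+ cells of the same sort. Dntt averaged 7.14 ± 4.79 CPM in AireKO and 7.93 ± 4.08 CPM in KI/+ cells (-0.16, interval -1.32 to 1.00). In lymph node AGF+ cells Ebf1 averaged 4.71 ± 0.773 CPM in AireKO and 4.30 ± 0.931 CPM in KI/+ cells, and Pax5 4.18 ± 1.896 CPM in AireKO and 4.06 ± 2.12 CPM in KI/+ cells. The interactions of genotype with tissue and of genotype with sort called no member either, against 0% and 0.00630% of all genes.

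Between the tissues, AGF+ cells differed in Dntt, Rag1 and Pax5 but not detectably in Ebf1. These comparisons share their AGF+ libraries with those above. Dntt, Rag1 and Pax5 were called higher in bone marrow in both genotypes. Over all 17265 genes 25.7% were called higher and 51.4% in either direction in AireKO mice, and 27.1% and 54.2% in KI/+ mice, and nothing is read from the members' number, since Rag1 passed the filter only through bone marrow. Bone marrow and lymph node cells also passed different gates, and gate and tissue cannot be told apart.

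Dntt was 516-fold higher in bone marrow than in lymph node AGF+ AireKO cells, with a counting interval of 143 to 4271, and at least 507-fold higher in KI/+ cells (edgeR adjusted p = 8.24e-09 and 2.22e-09). Rag1 was 18.6-fold higher in AireKO cells, with a counting interval of 6.00 to 93.2, and 28.9-fold higher in KI/+ cells, with 9.54 to 143 (edgeR adjusted p = 0.000283 and 3.38e-05). The libraries of the tissues did not overlap for either gene. Rag2 was not tested with the filter, and without it was 1.55 higher on the log2 scale in AireKO cells and 2.31 higher in KI/+ cells (edgeR adjusted p = 0.161 and 0.0140).

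Pax5 was higher in bone marrow than in lymph node AGF+ cells by 1.78 ± 0.48 in AireKO and 1.95 ± 0.46 in KI/+ cells (edgeR adjusted p = 0.00377 and 0.00140). Without the libraries numbered 2 the AireKO difference was 1.68 and lost its call (edgeR adjusted p = 0.0581). Ebf1 gave -0.79 ± 0.46 in AireKO and -0.73 ± 0.45 in KI/+ cells (edgeR adjusted p = 0.159 and 0.185). Its libraries overlapped between the tissues in both genotypes, and without bone marrow AGF+ KI/+ replicate 1 the KI/+ value was -1.29 (edgeR adjusted p = 0.0444). Cd79a, by contrast with Pax5, averaged 0.960 ± 0.277 CPM in bone marrow and 1.69 ± 0.225 CPM in lymph node AGF+ AireKO cells, and 0.778 ± 0.366 and 2.63 ± 0.919 CPM in bone marrow and lymph node AGF+ KI/+ cells.

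The reporter-negative groups showed the reverse. Bone marrow total DCs had less of all 4 tested members than lymph node AGF- KI/+ cells, where 28.8% of all genes were called lower and 56.1% in either direction. Pax5 summed to 8 counts in total DCs and 993 in lymph node AGF- cells (-6.93 ± 0.61, edgeR adjusted p = 1.05e-08), and Ebf1 to 4 and 515 in the same groups (-6.93 ± 0.57, edgeR adjusted p = 4.06e-09). Dntt summed to 2 counts in total DCs and 111 in AGF- cells, a ratio 57.7-fold lower with an interval of 15.6 to 482. Rag1, with 0 counts in total DCs and 7 in AGF- cells, was at least 2.42-fold lower (edgeR adjusted p = 0.0306). That Rag1 call rests on few reads: without the libraries numbered 2 its adjusted p was 0.0683, and without lymph node AGF- KI/+ replicate 3, which held 5 of the 7, it was 0.152.

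The reporter difference itself differed between the tissues for Dntt, Ebf1 and Pax5. The interaction of reporter sort and tissue in KI/+ mice, bone marrow minus lymph node, was 6.20 ± 0.82 for Ebf1 and 8.88 ± 0.78 for Pax5, and that of Dntt was above 0 as well. Over all genes 11.2% were called higher in this interaction. These 3 calls held without the libraries numbered 2. Rag1 was called too, but it entered the fit only through the bone marrow AGF+ libraries where it is high, and its lymph node difference was not detectable.

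Across the 7 groups, the mean level of Dntt and of Rag1 was highest in bone marrow AGF+ cells of both genotypes, whose libraries overlapped with each other and with no other group. Dntt in lymph node AGF- cells came next, apart from the total DC and lymph node AGF+ libraries. Rag2 had the bone marrow AGF+ groups on top in the mean, but 1 total DC library and 1 lymph node AGF+ library exceeded the lowest of their libraries. Pax5 ran through 4 levels: lymph node AGF- at the top, then bone marrow AGF+, then lymph node AGF+, with total DCs at the bottom, and libraries overlapped only between the genotypes of a sort. Ebf1 had lymph node AGF- cells at the top and total DCs at the bottom, while the lymph node AGF+ and bone marrow AGF+ groups overlapped.

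Genes whose log2 CPM ran most like the members over the 21 libraries differed between the members. For Dntt they were Ppp1r16b (r = 0.967), Aff3 (0.958), Fam167a (0.952), Zcchc18 (0.95) and Dgat2 (0.945). For Rag1 they were Cd96 (0.952), Nsg2 (0.944), Gprin3 (0.937), Casc4 (0.936) and Angpt1 (0.933). Among those of Ebf1 were the B cell genes Cd79a (0.959), Ikzf3 (0.951) and Ms4a1 (0.945), and Nr4a1 (0.945). Pax5 ran with Pik3c2b (0.937), Ms4a1 (0.934), Havcr1 (0.930), Ly6d (0.924) and Pkig (0.922). These correlations describe 21 libraries in 7 groups, with depth and sort in common, and the members did not share any gene among their nearest 5 except Ms4a1, which stood near Ebf1 and Pax5.

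The levels of these neighbours show the split. Ppp1r16b averaged 457 CPM in bone marrow AGF+ AireKO, 503 CPM in bone marrow AGF+ KI/+ and 35.7 CPM in total DCs, and Cd96, a receptor of T and NK cells, 103, 125 and 3.89 CPM in the same groups. Ms4a1, which encodes CD20, averaged 100 CPM in lymph node AGF- AireKO and 69.2 CPM in lymph node AGF- KI/+ cells, but 3.92 and 3.84 CPM in bone marrow AGF+ AireKO and KI/+ cells.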

How the data were processed

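RNA of sorted mouse DCs was sequenced as 21 libraries, with 3 independent biological replicates in each of 7 groups per the labels, so p-values measure the spread between these. Per the labels' protocols 1 ng of total RNA with an integrity number over 7 went into libraries of the Ovation SoLo kit, sequenced from both ends at 150 bp. Per the submitters' processing notes, the authors used mm10 and the tools STAR 2.7.3a, HTSeq 0.11.2, Picard 2.21.1, fastp 0.20.0, edgeR 3.38.1 and SAMtools 1.9. Strand setting and annotation release were not given in the sources used here, and reads of overlapping genes cannot be assigned with certainty. The deposited raw table holds read counts of 55471 genes, of which 327 without a symbol in GENCODE vM21 took 0.0139% of counts. The deposited normalized table was not used. Positions of promoters are from RefSeq.

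Counts were tested with edgeR 4.0.16 in R 4.3.3 (TMM, expression filter by group, quasi-likelihood F test, Benjamini-Hochberg adjusted p under 0.05 over all genes tested), in a fit of 9 bone marrow libraries, a fit of 12 lymph node libraries, and a fit of all 21 for comparisons between tissues. A group at 0 was set to a floor of 3 counts in sum, and 1 to 3 counts gave a ratio with an exact 95% binomial interval. The fits were tested on simulated data. All 7 members are named, with genes of the other lists by smallest adjusted p, at most 4 per list and comparison. Beyond these, marker genes, overlapping or related genes, examples of the filter and genes picked after their values were seen are named. Also given are the 5 genes most like each member tested over all libraries, with an average log2 CPM of at least 1 (prior count 2). The values of 1 gene of the B cell lists are not reported here, and marker sums leave it out. Members, lists and tests were chosen with earlier results of these data known. Deviations of libraries with the same number correlated above 0.1 for every number in 5 of the 6 pairs compared within a tissue, not for lymph node AGF+ AireKO and KI/+ (lowest 0.0904), and in none compared across tissues. Alternatives were other scalings, filters, DESeq2 1.42.0, limma 3.58.1, the replicate block, other sets of libraries and leaving out each library.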

Additional observations from a re-analysis of the deposited data

Results flagged for a closer look

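The difference between AGF+ and reporter-negative cells differed between bone marrow and lymph node in KI/+ mice for Dntt, Ebf1 and Pax5, and for Rag1, by the test of the interaction itself. The edgeR adjusted p was 2.63e-08 for Dntt, 0.00112 for Rag1, 1.63e-05 for Ebf1 and 1.67e-07 for Pax5 over 17265 genes tested. Rag1 passed the filter on low counts only through the bone marrow AGF+ libraries, and in lymph node its difference without the filter had an edgeR adjusted p of 0.562. Dntt summed to 1368 counts in bone marrow AGF+ and 2 in total DCs, and to 0 in lymph node AGF+ and 111 in AGF- cells. Pax5 summed to 243 and 8 counts in the bone marrow groups and to 68 and 993 in the lymph node groups, in the same order of sorts. The bone marrow sorts differ in gate as well as in reporter, and these cannot be told apart.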

How the results depend on the processing

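Of 204 counts of members called under the alternatives, 203 stayed within 1.5 times the count given. The exception was lymph node AGF- AireKO against KI/+, where no filter on low counts called 1 member, Pax5, at the same 0.61 (edgeR adjusted p = 0.0478), and 270 genes instead of 1 over the whole table; the cause was not tested. Of 728 values of a member in a comparison, 7 lost a call, 2 gained one and 24 changed direction. Those 24 were all of genotype comparisons or of the interaction of genotype with tissue, none called (edgeR or limma adjusted p of at least 0.917), and 20 of them came from leaving out 1 library. The log2 values with 1 library left out ran from -0.30 to 0.63 for Ebf1 and from -0.29 to 0.10 for Pax5 in bone marrow AGF+ cells, from -0.0068 to 0.29 for Ebf1 and from -0.35 to 0.37 for Pax5 in lymph node AGF+ cells, and from -0.86 to 0.18 for Dntt in lymph node AGF- cells. For the interaction they ran from -1.37 to 2.48 for Rag1, from -0.41 to 0.52 for Ebf1 and from -0.49 to 0.22 for Pax5. Limma gave -0.22 for Pax5 in lymph node AGF+ cells and 0.069 for Ebf1 and 0.12 for Pax5 in the interaction, and without the libraries numbered 2 Ebf1 in bone marrow AGF+ cells was -0.53; the cause was not tested. The losses were Rag1 between total DCs and lymph node AGF- cells in 6 alternatives, with an adjusted p of at most 0.152, and Pax5 between tissues in AireKO cells without the libraries numbered 2. The replicate number as a block called 4 members in bone marrow AGF+ against total DC and 3 in each lymph node sort comparison, as without the block, and changed no other call of a member. All 98 mean CPM values moved by less than 1 SD under another scaling. Depth limits Rag2, Vpreb1 and Igll1 most, and Rag1 in lymph node.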
